A study of Mus musculus with 4 samples.

Results

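Polycomb repressive complex genes were followed in the mouse basal cell carcinoma line ASZ001 with and without a c-FOS vector. The 10 genes are Ezh1, Ezh2, Suz12, Eed and Jarid2, which encode subunits of Polycomb repressive complex 2 (PRC2), and Bmi1, Ring1, Rnf2, Cbx2 and Cbx7, which encode subunits of Polycomb repressive complex 1 (PRC1). They were taken by symbol from the deposited gene table, where all 10 had a row among 24907 genes. The control group was 2 libraries of cells transfected with an empty vector inducible by doxycycline, and the c-FOS group 2 libraries of cells transfected with an inducible vector carrying c-FOS. Both groups were treated with doxycycline, an antibiotic that switches such vectors on, and no group of c-FOS vector cells without doxycycline was analysed here. What c-FOS induction did and how the transfected cells otherwise differed cannot be told apart. Nothing in the labels says whether the replicate libraries are separate cultures; p-values therefore measure only the spread between these samples, and part of it may be technical.

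Polycomb proteins keep genes silent through histone modification. PRC2, with EZH1 or EZH2 as its catalytic subunit, methylates lysine 27 of histone H3, and PRC1, with RING1 or RNF2 (RING1B), ubiquitinates histone H2A. In the epidermis these complexes hold back differentiation and other lineage programmes in progenitor cells, and Ezh2 is known as a gene whose transcript is higher in dividing than in resting cells.

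Total counts were between 28405433 and 32465409 per library, and each of the 10 genes had at least 275.5 counts in every library. Fos, the gene carried by the vector, was at 0.404 and 0.351 CPM (counts-per-million of the scaled library total) in the control libraries and at 296.8 and 313.4 CPM in the c-FOS libraries, as the labels name the groups. The basal cell carcinoma and keratinocyte markers Krt5, Krt14, Trp63, Cdh1, Gli1 and Ptch1 were detected in all libraries. They summed to between 19104 and 19339 CPM in control and between 8790 and 9134 CPM in c-FOS cells. Of these markers, 6 of 6 fell, against 33.3% of all tested genes called lower. Of 6 fibroblast markers, 2 were tested: Col1a2 rose and Col1a1 did not pass. The sum of the 6 was 1.16 to 1.42 CPM in the control libraries and 3.59 to 4.63 CPM in the c-FOS libraries. Col1a2 averaged 3.45 CPM with c-FOS against 0.539 CPM for control. Dcn, which was too low to be tested, went the other way, with means of 0.128 CPM with c-FOS against 0.438 CPM for control. Col3a1 and Lum were near 0, and Thy1 was at 0 in every library. Of 6 leukocyte markers, Cd68 rose, but not without c-FOS replicate 2 (log2 fold change 0.29), and the 6 summed to between 10.4 and 15.2 CPM over the libraries, with Cd3e at 0 throughout. The part of these markers in the results below was not tested. In bulk RNA, fewer cells of a type and less RNA per cell cannot be told apart.

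Most of the 10 Polycomb transcripts were lower in the c-FOS cells. Of the 10, 8 fell (Ezh2, Suz12, Eed, Jarid2, Bmi1, Ring1, Cbx2 and Cbx7), Rnf2 rose and Ezh1 did not pass, by the edgeR quasi-likelihood test, with p-values adjusted by Benjamini-Hochberg over all 12791 tested genes and a threshold of 0.05. The background was large: 67.1% of all tested genes passed, 33.3% as lower and 33.8% as higher. The 9 of 10 that passed are to be read against that share, and the 8 of 10 that fell against the share called lower. The 10 genes and the other lists were chosen with earlier results of these data known, so such counts only describe them. The median log2 fold change of the 10 genes was -0.44, against -0.01 over all tested genes. The changes were moderate in size, since none of the 10 reached 2-fold, as 15.4% of tested genes did. For 9 of the 10 genes the groups did not overlap, which held for 83.6% of all tested genes.

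**Figure D1:**
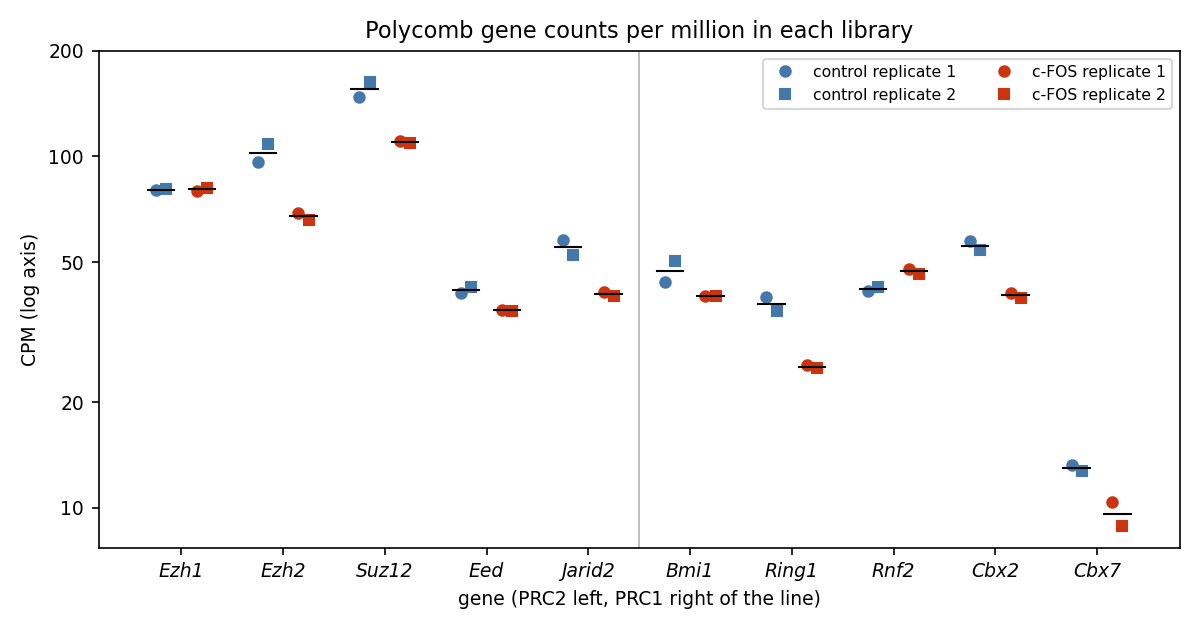
CPM (log axis) of the 10 Polycomb genes in each of the 4 libraries, with circles for replicate 1, squares for replicate 2 and black lines for group means. The c-FOS points lie under the control points for 8 genes, above them for Rnf2 and among them for Ezh1.

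The PRC2 methyltransferase genes differed from each other. Ezh2, the more active enzyme and the one linked to dividing cells, was at 96.2 and 108 CPM in the control libraries and at 68.9 and 66.1 CPM in the c-FOS libraries. Both c-FOS values were under both control values, and the groups averaged 102 ± 8.55 and 67.5 ± 1.92 CPM (SD, n = 2 per group). Ezh2 fell by 0.60 ± 0.05 (SE) on the log2 scale (edgeR adjusted p = 2.93e-07), and this was the lowest fold change among the 10. Ezh1, the paralogue that is typical of resting and differentiated cells, was at 80.3 and 80.6 CPM in control and at 79.7 and 81.5 CPM in c-FOS cells. The Ezh1 groups overlapped, and its log2 fold change was 0.0018 ± 0.0418 (SE) (edgeR adjusted p = 0.973). Its sign depended on the scaling: it was -0.14 with library totals, where it passed as lower (adjusted p = 0.0106 in edgeR, against a highest value of 0.989 over the 11 alternatives), but the median of all tested genes was also -0.14 in that setting.

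Set per length of the authors' gene model, the levels of the 2 methyltransferase transcripts came closer to each other with c-FOS. Ezh2 was at 38.9 ± 3.25 CPM per kilobase in control and 25.7 ± 0.731 in c-FOS cells, and Ezh1 at 19.2 ± 0.0428 and 19.3 ± 0.307 CPM per kilobase (SD, n = 2 per group). Ezh1 thus made up 34.4% and 31.9% of the summed Ezh1 and Ezh2 level in the control libraries and 42.1% and 43.6% in the c-FOS libraries. The share was higher by 9.71 percentage points with c-FOS, and it does not depend on the scaling between libraries. Its size does depend on the gene model lengths. An exact permutation test of the share gave a two-sided p of 0.333, which is the smallest that 2 against 2 libraries allow.

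The windows just before the start sites of this pair are shown because one transcript fell and the other did not. They are the 250 bases upstream of the RefSeq start on GRCm38.p6, on the gene's strand, with each CG dinucleotide in capitals. The Ezh2 window lies at chr6:47595031-47595280 (minus strand) and the Ezh1 window at chr11:101226464-101226713 (minus strand).
Ezh2: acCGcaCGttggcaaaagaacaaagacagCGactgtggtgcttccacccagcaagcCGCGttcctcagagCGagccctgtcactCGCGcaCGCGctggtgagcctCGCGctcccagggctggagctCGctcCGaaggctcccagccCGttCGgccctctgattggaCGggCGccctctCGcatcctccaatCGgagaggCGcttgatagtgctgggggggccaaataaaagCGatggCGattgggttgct
Ezh1: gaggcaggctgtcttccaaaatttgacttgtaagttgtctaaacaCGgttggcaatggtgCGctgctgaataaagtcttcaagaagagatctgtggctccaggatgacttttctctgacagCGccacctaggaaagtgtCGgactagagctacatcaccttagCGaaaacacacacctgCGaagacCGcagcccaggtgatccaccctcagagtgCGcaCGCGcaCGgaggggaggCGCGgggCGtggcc
The Ezh2 window holds 23 CG dinucleotides and is 63.6% G or C, and the Ezh1 window holds 14 and is 55.2% G or C. Both counts are above the median of 6 over the 32841 RefSeq windows of this length.

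**Figure D2:**
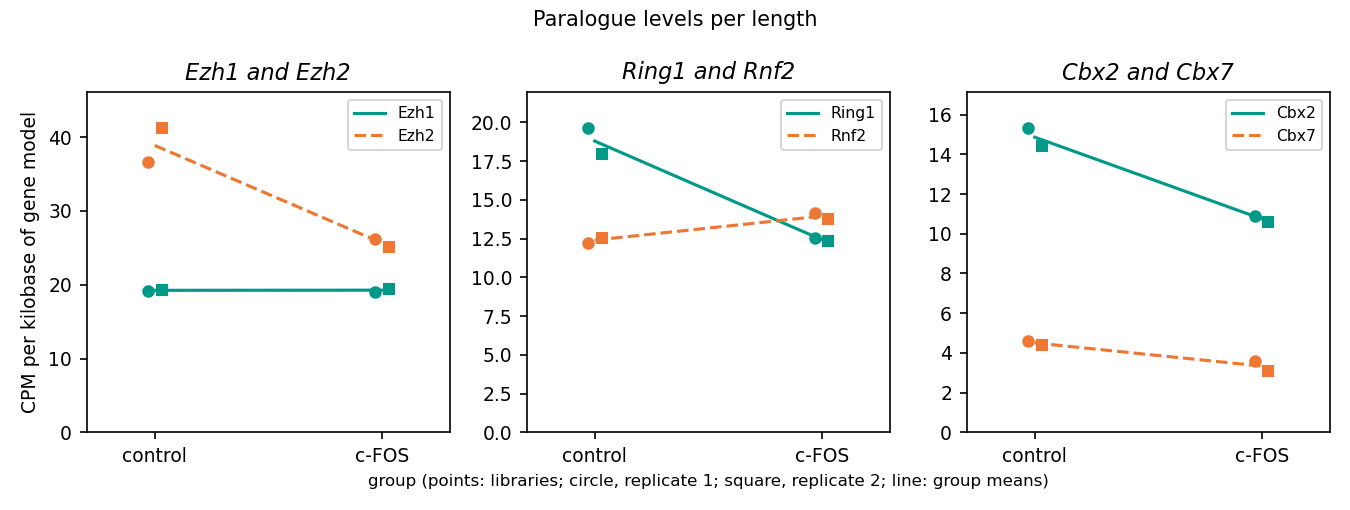
Levels of 3 paralogue pairs as CPM per kilobase of the authors' gene model, with a point per library and lines between group means; each axis starts at 0. Ezh2 drops from 38.9 to 25.7 while the Ezh1 line is flat, the Ring1 and Rnf2 lines cross (18.8 to 12.4 and 12.4 to 14.0), and the Cbx2 and Cbx7 lines both go down.

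The other PRC2 core genes fell to different degrees. Suz12, which encodes a scaffold subunit without which the complex is unstable, was at 148 and 163 CPM in control and at 111 and 109 CPM in c-FOS cells. The groups were well apart, and Suz12 fell by 0.50 ± 0.05 (SE) on the log2 scale (edgeR adjusted p = 4.33e-07). Eed, whose product binds trimethylated H3 and stimulates the enzyme, was at 40.9 and 42.4 CPM in control and at 36.6 and 36.4 CPM in c-FOS cells. Eed fell by 0.19 ± 0.06 (SE), the smallest of the 8 falls (edgeR adjusted p = 0.00714). The Eed call was lost without c-FOS replicate 1 (-0.19, adjusted p = 0.0591), without c-FOS replicate 2 (-0.19, adjusted p = 0.0751) and in DESeq2 (-0.19, adjusted p = 0.0582), within a range of 0.000119 to 0.0751 over the 11 alternatives. Suz12 and Ezh2 passed in all 11 alternatives.

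Jarid2, an accessory subunit that helps PRC2 reach its sites, was at 58.0 and 52.3 CPM in control and at 41.2 and 40.1 CPM in c-FOS cells. It fell by 0.44 ± 0.06 (SE) on the log2 scale (edgeR adjusted p = 1.28e-05). Its 2 c-FOS values lay closer together than its 2 control values.

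The Suz12 window is shown because of the 9 genes with a window it alone held a match to the motifs searched; the match is in capitals. It lies at chr11:79992856-79993105 on the plus strand of GRCm38.p6.
Suz12: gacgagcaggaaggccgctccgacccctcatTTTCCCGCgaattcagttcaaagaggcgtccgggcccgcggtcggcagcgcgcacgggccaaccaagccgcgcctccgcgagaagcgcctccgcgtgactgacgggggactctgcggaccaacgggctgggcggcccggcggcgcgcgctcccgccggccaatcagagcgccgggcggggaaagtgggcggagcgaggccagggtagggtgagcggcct
The capitals, TTTCCCGC, stand at positions -219 to -212 from the start and match a binding motif of the E2F cell cycle factors. Windows of 9 of the 10 genes were found in the RefSeq table, and they were searched on both strands for the E2F letters TTTCCCGC, TTTGGCGC, TTTCGCGC and TTTGCCGC, the AP-1 letters TGANTCA and the CRE letters TGACGTCA. These motifs do not overlap each other in the windows. The E2F letters stand in 1.86% of all RefSeq windows, the AP-1 letters in 6.75% and the CRE letters in 1.55%. All the E2F and CRE letters contain CG, and the windows of the 9 genes hold more CG dinucleotides than the median window. For these letters the share over all windows is thus not a like background. No window of the 9 genes held the AP-1 or CRE letters, which says only that these letters are not in these 250 bases.

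The RING genes, which encode the alternative ubiquitin ligases of PRC1, moved in opposite directions. Ring1 was at 39.7 and 36.4 CPM in control and at 25.4 and 24.9 CPM in c-FOS cells. It fell by 0.59 ± 0.07 (SE) on the log2 scale, almost as far as Ezh2 (edgeR adjusted p = 2.37e-06). Rnf2, usually regarded as the main ligase of the pair, was at 41.4 and 42.4 CPM in control and at 47.8 and 46.4 CPM in c-FOS cells. Both c-FOS values were above both control values, and Rnf2 rose by 0.17 ± 0.05 (SE) (edgeR adjusted p = 0.0105). That call was lost with library totals (0.03, adjusted p = 0.6), with upper-quartile factors (0.11, adjusted p = 0.0828), in DESeq2 (0.18, adjusted p = 0.0609), without c-FOS replicate 1 (0.15, adjusted p = 0.106) and without c-FOS replicate 2 (0.19, adjusted p = 0.0515), where the range over the 11 alternatives was 0.00299 to 0.6.

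Per length, the order of the 2 RING transcripts changed between the groups. By CPM, Ring1 was under Rnf2 in every library, so this change depends on the gene model lengths (2025 bases for Ring1, 3378 for Rnf2). Ring1 was at 18.8 ± 1.15 and Rnf2 at 12.4 ± 0.223 CPM per kilobase in control cells, and Ring1 was at 12.4 ± 0.172 and Rnf2 at 14.0 ± 0.293 CPM per kilobase in c-FOS cells (SD, n = 2 per group). Ring1 was 61.6% and 58.9% of their sum in the control libraries and 47.0% and 47.3% in the c-FOS libraries. The share fell below 50% in both c-FOS libraries, a difference of -13.1 percentage points (exact permutation test, two-sided p = 0.333, the smallest possible). In GENCODE vM21, 158 exonic bases of Rnf2 (3.83%) overlap those of Trmt1l on the opposite strand. Exons of Eed (6.82%), Suz12 (3.6%), Ezh2 (2.61%) and Cbx7 (1.54%) also overlap other genes on the opposite strand. The sources used here do not say whether the counting used strand. Trmt1l did not pass, with 50.1 ± 1.22 CPM in control against 47.4 ± 0.862 CPM in c-FOS cells (SD, n = 2 per group). E230029C05Rik, which overlaps Eed, had 0 counts in every library. Apobec3, which overlaps Cbx7, had 2 counts in each control library and 0 in each c-FOS library.

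The RING windows are shown because these genes moved apart, again with each CG dinucleotide in capitals. The Ring1 window lies at chr17:34024681-34024930 (minus strand) and the Rnf2 window at chr1:151500992-151501241 (minus strand) of GRCm38.p6.
Ring1: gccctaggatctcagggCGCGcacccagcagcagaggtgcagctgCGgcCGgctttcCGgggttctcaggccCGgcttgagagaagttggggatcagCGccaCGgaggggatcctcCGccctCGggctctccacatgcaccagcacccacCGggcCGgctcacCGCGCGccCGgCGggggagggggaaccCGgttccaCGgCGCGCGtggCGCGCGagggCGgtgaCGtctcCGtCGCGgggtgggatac
Rnf2: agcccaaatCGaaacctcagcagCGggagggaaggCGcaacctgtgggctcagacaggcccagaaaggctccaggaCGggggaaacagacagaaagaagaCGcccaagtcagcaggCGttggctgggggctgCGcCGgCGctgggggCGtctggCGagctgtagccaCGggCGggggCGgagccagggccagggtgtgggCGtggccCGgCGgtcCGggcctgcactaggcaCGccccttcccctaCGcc
The Ring1 window holds 30 CG dinucleotides and is 73.6% G or C, and the Rnf2 window holds 20 and is 70.4% G or C. Over the 9 genes with a window the number of CG dinucleotides ran from 12 in Eed to 37 in Suz12, all above the median of 6 over all windows.

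Bmi1 encodes PCGF4, the PCGF subunit best known from stem cell self-renewal and repression of Cdkn2a. It was at 44.0 and 50.3 CPM in control and at 40.1 and 40.2 CPM in c-FOS cells. The groups did not overlap, but the 2 control values were 6.28 CPM apart and the control mean exceeded the c-FOS mean by 7.06 CPM. Bmi1 fell by 0.23 ± 0.06 (SE) on the log2 scale (edgeR adjusted p = 0.00499), and by 0.13 without control replicate 2, the library in which it was highest.

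The other PCGF genes moved in both directions, and the closest paralogue of Bmi1 also fell. Pcgf2 (Mel18), which like Bmi1 belongs to canonical PRC1, averaged 61.4 ± 0.169 CPM in control against 41.9 ± 0.760 CPM in c-FOS cells (SD, n = 2 each) and fell by 0.55 on the log2 scale. Among the PCGF genes of variant PRC1, Pcgf5 rose by 0.77 (17.0 ± 0.433 to 29.0 ± 1.42 CPM) and Pcgf3 rose by 0.23, whereas Pcgf6 fell by 0.38 and Pcgf1 had a log2 fold change of -0.00098, whose sign changed in 5 alternatives. Pcgf3 did not pass with library totals (0.09, adjusted p = 0.0552 in edgeR). Within the summed PCGF level per length, Bmi1 and Pcgf2 together went from 34.0% to 24.5%. Pcgf3 and Pcgf5 together went from 50.3% to 62.7%, and each library of a group lay on the same side for each of these 4 genes.

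**Figure D3:**
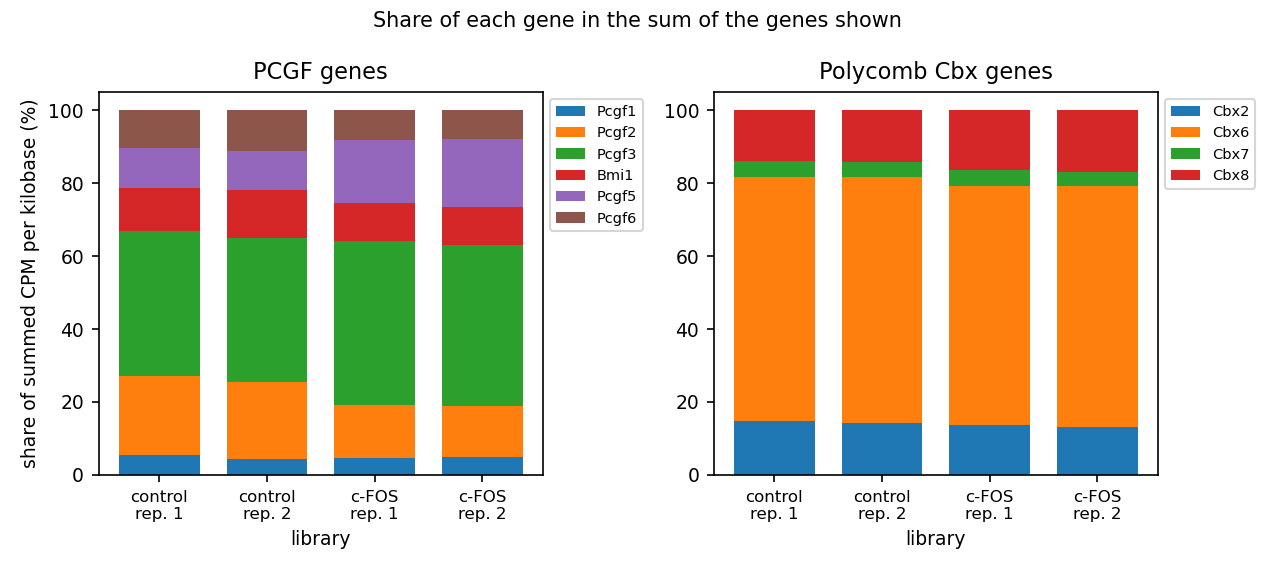
Share (%) of each gene in the summed CPM per kilobase of the genes shown, with 1 bar per library, for the 6 PCGF genes (left) and Cbx2, Cbx6, Cbx7 and Cbx8 (right). Pcgf5 widens from near 11% to near 18% and Pcgf2 narrows from near 21% to near 14%, while Cbx6 stays the widest Cbx band in all 4 libraries.

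The Cbx genes of PRC1 encode the chromodomain subunits that read methylated lysine 27 of H3, and both members studied fell. Cbx2 was at 57.3 and 54.0 CPM in control and at 40.9 and 39.7 CPM in c-FOS cells. It fell by 0.47 ± 0.05 (SE) on the log2 scale (edgeR adjusted p = 2.64e-06). Cbx7, which is known for repressing Cdkn2a, was the least abundant of the 10, at 13.2 and 12.7 CPM in control and at 10.4 and 8.89 CPM in c-FOS cells. It fell by 0.44 ± 0.10 (SE) (edgeR adjusted p = 0.00135). The 2 fell by similar amounts, so that Cbx7 was 23.3% ± 0.236 of the summed level of the pair per length in control and 23.7% ± 1.57 in c-FOS cells (SD, n = 2 per group), and these values overlapped.

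Cbx6 and Cbx8, which can take the same place in PRC1, moved to a like extent or less. Cbx6, at 376 ± 5.16 CPM in control, fell by 0.39 on the log2 scale to 287 ± 2.37 CPM (SD, n = 2 per group). Cbx8 (-0.11) did not pass, though library totals (-0.25) or upper-quartile factors (-0.18) gave a lower call. Of the summed level of Cbx2, Cbx6, Cbx7 and Cbx8 per length, Cbx6 made up 67.2% ± 0.322 in control and 65.8% ± 0.357 in c-FOS cells, and Cbx2 14.4% ± 0.335 and 13.4% ± 0.314 (SD, n = 2 per group).

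Ordered by level per length, Ezh2 and Suz12 were the most abundant of the 10 in both groups and Jarid2 and Cbx7 the least. The places depend on the gene model lengths. In control cells the ranges of the 2 libraries overlapped between the neighbours Ezh2 and Suz12, Ezh1 and Ring1, and Bmi1 and Rnf2. In c-FOS cells the only overlapping neighbours were Ezh2 and Suz12. Rnf2 moved from the eighth to the fifth place, and Cbx2 from the sixth to the eighth.

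**Figure D4:**
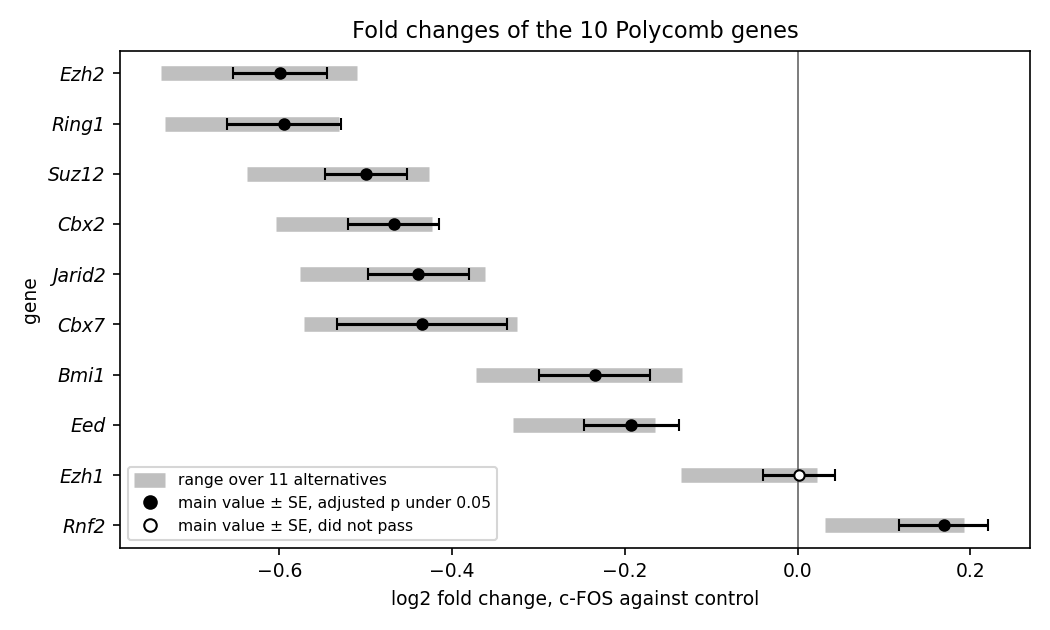
Log2 fold change of c-FOS against control for each of the 10 genes (points, with SE bars; open point, did not pass) over the range of the 11 alternatives (grey bars). The grey bars of the 8 genes that fell stay under 0, that of Ezh1 spans 0, and that of Rnf2 reaches down to 0.03.

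Among the remaining PRC2 genes, falls also prevailed. Of 9 other core and accessory genes listed, 8 had a row and were tested, 6 fell and none rose, and their median log2 fold change was -0.38, against -0.01 over all tested genes and 33.3% of them called lower. Phf19, a Polycomb-like accessory subunit, fell by 2.12 ± 0.23 (SE) from a low level (3.11 ± 0.338 to 0.690 ± 0.188 CPM; SD, n = 2 per group). Epop fell by 0.69, the Polycomb-like gene Mtf2 by 0.55, Aebp2 by 0.50 and the histone chaperone genes Rbbp7 by 0.27 and Rbbp4 by 0.16 on the log2 scale. Leaving out c-FOS replicate 1 ended the Rbbp4 call (-0.15, edgeR adjusted p = 0.0622). Phf1 and Lcor did not pass. For Phf1 the log2 fold change was 0.19 (edgeR adjusted p = 0.0746), with both c-FOS values above both control values.

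PRC1 genes outside the named members were called in both directions, as were all tested genes (33.3% lower and 33.8% higher). Of 8 tested canonical PRC1 genes, 3 fell (Pcgf2, Cbx6 and Scmh1), Phc3 rose by 0.25 on the log2 scale and 4 did not pass, with a median of -0.09. The Scmh1 call (-0.13) was lost in DESeq2 (adjusted p = 0.123) and on leaving out control replicate 1 (0.058), c-FOS replicate 1 (0.0932) or c-FOS replicate 2 (0.22). Of 21 tested variant PRC1 genes, 9 rose and 8 fell, with a median of -0.00098. Besides Pcgf5, which changed most, Bcor fell by 0.75, Auts2 by 0.62 and L3mbtl2 by 0.59 on the log2 scale. With library totals, 6 canonical genes were called lower, and only 4 variant genes were called higher. Over the 47 tested PRC1 and PRC2 genes, members included, 25 fell and 11 rose, and the 11 that rose were all PRC1 genes: 10 of 13 tested PRC2 genes fell and none rose.

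The enzymes that reverse the Polycomb marks were followed as well. Of 11 tested genes of PR-DUB, the complex that removes ubiquitin from H2A, and its partners, 5 fell and 2 rose (median -0.09), a share called that is near the 67.1% of all tested genes. Asxl3 rose by 0.81 (18.9 ± 1.37 CPM in control, 33.2 ± 1.58 CPM in c-FOS cells; SD, n = 2 each) and Mbd5 by 0.34, and Mbd6 fell by 0.60 and Asxl2 by 0.20 on the log2 scale. The number of PR-DUB genes called lower was 9 with library totals, 3 in DESeq2 and 2 without c-FOS replicate 2. Of the H3 lysine 27 demethylase genes, Kdm6a fell by 0.21 on the log2 scale (25.6 ± 1.00 to 22.1 ± 0.412 CPM), and Kdm6b had a log2 fold change of -0.08 and did not pass. The Kdm6a call was lost in DESeq2 (adjusted p = 0.105) and without control replicate 1 (0.0578), c-FOS replicate 1 (0.139) or c-FOS replicate 2 (0.075), and Kdm6b passed as lower with library totals (-0.22), with upper-quartile factors (-0.15) and without control replicate 2 (-0.16).

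Transcripts of loci that are textbook targets of Polycomb repression moved in both directions. Cdkn2a, which encodes the cell cycle inhibitors p16INK4A and p19ARF, was at 95.0 and 93.3 CPM in control and at 227 and 232 CPM in c-FOS cells, and it rose by 1.29 ± 0.04 (SE) on the log2 scale. Cdkn2b, which encodes the neighbouring inhibitor p15INK4B, was at 59.8 and 53.6 CPM in control and at 257 and 263 CPM in c-FOS cells, and it rose by 2.20 ± 0.05 (SE). Both groups were far apart for both genes (edgeR adjusted p = 2.3e-12 and 1.31e-13). The table gives 1 value for Cdkn2a, so its 2 products cannot be told apart.

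Hox genes are the classical Polycomb targets. Of 39 Hox genes, 27 were tested, 12 fell and 6 rose, against 33.3% of all tested genes called lower and 33.8% called higher, and their median log2 fold change was -0.21, against -0.01 over all tested genes. The genes that changed most were Hoxd11, which fell by 2.17 (18.1 ± 0.349 CPM in control, 4.03 ± 0.101 CPM in c-FOS cells; SD, n = 2 each), Hoxc13, a regulator of hair and nail formation, which fell by 1.65, and Hoxd4, which fell by 1.25, while Hoxc6 rose by 1.08 on the log2 scale. By cluster, a division made after the values were seen, 6 of 6 tested HoxD genes fell and none rose, and 3 of 8 tested HoxC genes rose and 3 fell. Of 4 tested HoxB genes 2 rose and none fell, and of 9 tested HoxA genes 1 rose and 3 fell. Of 35 other developmental transcription factor genes, 11 were at 0 in every library and 16 were tested, of which 7 fell and 4 rose (median -0.16). Lhx1 rose by 1.49 and Foxa1 by 1.00, and Msx1 fell by 1.08 and Lhx2 by 1.14 on the log2 scale. The Lhx2 call was lost in DESeq2 (adjusted p = 0.205) and on leaving out c-FOS replicate 1 (0.0622) or c-FOS replicate 2 (0.204).

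Transcripts of dividing cells were mostly lower in the c-FOS cells. Of 26 proliferation genes, 25 fell and none rose, against 33.3% of all tested genes called lower and 33.8% called higher. Their median log2 fold change was -1.70, against -0.01 over all tested genes, and E2f1 did not pass. The log2 fold changes of Top2a, Aurkb, Ccnb1 and Ccnb2 were -2.50, -2.50, -2.47 and -2.39. The summed level of the 26 genes was 1989 and 2324 CPM in the control libraries and 694 and 623 CPM in the c-FOS libraries, and the total over both libraries fell by 69.4%. Among the 8 genes that fell, Ezh2, Suz12, Eed and Bmi1 were, like that sum, higher in control replicate 2 than in control replicate 1, and so were Ezh1 and Rnf2, which did not fall. The other 4, Jarid2, Ring1, Cbx2 and Cbx7, were highest in control replicate 1. Between the c-FOS libraries the sum was higher in replicate 1. Ezh2, Suz12, Eed, Jarid2, Ring1, Cbx2, Cbx7 and Rnf2 went the same way there, while Bmi1 and Ezh1 were higher in c-FOS replicate 2. Some of these differences were small, as for Eed (36.6 and 36.4 CPM). These orders rest on 2 libraries per group. The part of the proliferation transcripts in the fall of the Polycomb genes was not tested.

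**Figure D5:**
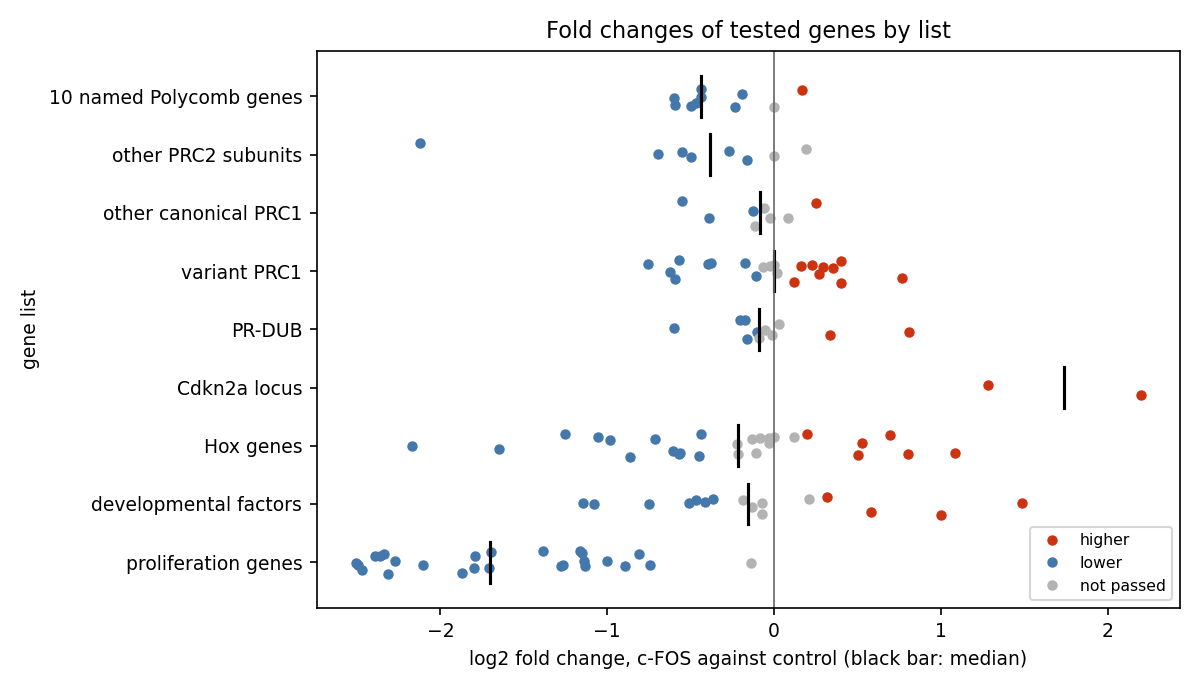
Log2 fold change of c-FOS against control for each tested gene by list (red, higher; blue, lower; grey, did not pass), with black bars for list medians. The median is -0.44 for the 10 named Polycomb genes, -0.38 for other PRC2 subunits, near 0 for variant PRC1 and -1.70 for proliferation genes.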

How the data were processed

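RNA-seq of 4 libraries, 2 control and 2 c-FOS, was analysed at the gene level. Per the labels' protocols, total RNA from adherent cells was isolated with a column kit and made into Illumina TruSeq libraries. Per the series design text, reads that passed quality filters were analysed with TopHat followed by HOMER. Per the submitters' processing notes the build was mm9 and DESeq2 was among the tools; the sources used here give neither versions nor annotation nor strand setting. The authors deposited expected counts without normalization, in steps of 0.5, beside a gene model length per row. Of 24909 rows, 2 repeated a symbol and the row with the larger total was kept.

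Counts were rounded to whole numbers (0.5 upwards) and tested with edgeR 4.0.16 (R 4.3.3): a filterByExpr filter (by group; count 10, total 15), TMM scaling and a two-sided quasi-likelihood test between the 2 groups with no covariate, at a Benjamini-Hochberg threshold of 0.05. This kept 12791 genes, all 10 Polycomb genes among them; the script was tested on simulated counts. CPM use the deposited values and TMM-scaled totals, and the SE is from the F statistic. The test draws each gene's spread toward that of other genes (prior degrees of freedom 11.3). The p-values and SE therefore do not rest on the gene's own 4 libraries alone. DESeq2 1.42.0, other scalings and filters, leaving out each library and a replicate block were run as alternatives. Replicates differed by more than sampling noise (chi-square per degree of freedom 4.93 in control, 1.96 in c-FOS). Promoter windows are from RefSeq (GRCm38.p6), matched by symbol, and exon overlaps from GENCODE vM21; no coordinates were converted. For Jarid2, which has 2 windows, both were searched.

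All 10 genes are named. From every other list, up to 4 genes with the largest absolute change past the threshold are named, and all genes that share a complex position with a member (PCGF, Cbx, Rbbp and Kdm6 genes), apart from an item that is not reported here. The members and lists were chosen with earlier results of these data known.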

Additional observations from a re-analysis of the deposited data

How the results depend on the processing

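Of the 10 Polycomb genes, 7 (Ezh2, Suz12, Jarid2, Bmi1, Ring1, Cbx2 and Cbx7) kept their direction and passed in all 11 alternatives. The number called higher was 0 with library totals, upper-quartile factors and DESeq2, against 1, and between 0 and 1 when single libraries were left out, since Rnf2 did not pass with library totals (0.032), upper-quartile factors (0.11) or DESeq2 (0.18), and lay between 0.15 and 0.19 when single libraries were left out. Library totals moved the median of all tested genes to -0.14 and the share of calls that were higher to 35.4%, against 50.3%. Eed was -0.19 in DESeq2, where it did not pass, and between -0.22 and -0.17 when single libraries were left out. The sign of Ezh1 turned with library totals (-0.14), upper-quartile factors (-0.061), no filter (-0.0014), the stricter filter of 50 counts (-0.0030), and leaving out single libraries gave -0.013 (without c-FOS replicate 2) to 0.023. That of Pcgf1 turned with RLE factors (0.0048), DESeq2 (0.0035), the replicate block (0.00082) and without control replicate 1 (0.098) or c-FOS replicate 1 (0.019), over a range of -0.094 to 0.098 when single libraries were left out. The replicate block changed no call among the 10 genes, with 8 lower and 1 higher, and 8464 genes called against 8589; deviations of same-numbered libraries correlated at -0.0841, so the numbers were not taken as pairs. The paralogue shares were recomputed without each library, an alternative chosen after seeing the data: the Ezh1 share was higher by 8.43 to 10.99 percentage points and the Ring1 difference lay between -14.4 and -11.7, while the Cbx7 difference lay between -0.71 and 1.51 and so changed sign. The causes were not tested. Each of the 10 genes had at least 275.5 counts in every library, and the small number of libraries limits the precision.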
